A study of Mus musculus with 18 samples.

Results

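Peaks of accessible chromatin that lie in the short space between closely paired genes were described here. A gap was the stretch of 1 to 1000 bp between 2 adjacent protein-coding genes that do not overlap, on the autosomes of the mouse build GRCm38, and a member was any merged ATAC peak over at least 1 bp of such a gap. The rule gave 1284 peaks, 0.802% of the 160099 autosomal peaks, out of 166066 peaks in all. They lay over 1280 of 1958 gaps, and 3542 of 20558 autosomal protein-coding genes (17.2%) flanked a gap. Their counterparts were the ends of 7478 isolated genes, each with no other protein-coding gene over it or within 10 kb on either side.

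The peaks came from mouse embryonic stem cells of the line dTKO, whose genotype is given as Suv39h1fl/fl ; Suv39h2-/- ; Setdb1fl/fl, grown in LIF/FCS medium. Suv39h1, Suv39h2 and Setdb1 are methyltransferases for lysine 9 of histone H3, a mark of silent chromatin, and the study asked where chromatin opens once they are lost. All libraries carried this genotype and the label + auxin + dTAG13 (100 µg/ml auxin, 0.5 µM dTAG13), 2 agents that trigger the degradation of tagged proteins; the labels name no tagged protein. There were 3 libraries at each of 0, 3, 6, 12, 24 and 48 h, 18 in all, described as biological repeats. The values analysed here are 1 merged list of peak positions over these libraries, with no read counts, so depth per library is unknown and neither times nor replicates could be compared. An interval below covers the counting of loci only, and peaks opened at any time stand in the same list. Each of 6 pluripotency markers had a peak within 500 bp of an annotated end, with the widest per gene between 304 bp for Esrrb and 2567 bp for Pou5f1.

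Mammalian genes often sit in pairs, and the arrangement decides which of their ends face each other. In a head-to-head pair the genes are read away from each other from neighbouring starts, so that their promoters share 1 stretch of DNA, often a CpG island, and many such pairs serve basic functions of every cell. In a tail-to-tail pair the far ends meet, where transcripts are cut and polyadenylated, and in a head-to-tail pair the far end of 1 gene meets the start of the next. ATAC-seq marks DNA that a transposase can reach, and in most cells active promoters are among its strongest sites.

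The sequence between paired starts is shown first for 5 head-to-head pairs known as neighbours, since the results below turn on such gaps. Each is the whole gap, 5′ to 3′ on the forward strand of GRCm38.p6, read from RefSeq promoter sequences. Capitals mark matches to 9 promoter motifs, searched on both strands and spelled out further below, among them CCAAT, which reads ATTGG on the opposite strand, and the GC box GGGCGG. Atm, a kinase of the DNA damage response, and Npat, a coactivator of histone genes, were 60 bp apart at chr9:53536829-53536888. Brca1, a DNA repair gene, and Nbr1, an autophagy receptor, were 151 bp apart at chr11:101551956-101552106. Ranbp1, a cofactor of nuclear transport, and Trmt2a, a tRNA methyltransferase, were 152 bp apart at chr16:18248695-18248846. Mrps12, of the mitochondrial ribosome, and Sars2, the mitochondrial seryl-tRNA synthetase, were 135 bp apart at chr7:28741822-28741956. Psmb9, an immunoproteasome subunit, and Tap1, a peptide transporter, were 225 bp apart at chr17:34187331-34187555.
Atm-Npat: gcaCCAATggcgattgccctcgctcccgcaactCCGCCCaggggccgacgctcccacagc
Brca1-Nbr1: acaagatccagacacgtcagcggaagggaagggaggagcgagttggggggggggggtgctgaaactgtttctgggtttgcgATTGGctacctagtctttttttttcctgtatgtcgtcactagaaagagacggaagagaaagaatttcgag
Ranbp1-Trmt2a: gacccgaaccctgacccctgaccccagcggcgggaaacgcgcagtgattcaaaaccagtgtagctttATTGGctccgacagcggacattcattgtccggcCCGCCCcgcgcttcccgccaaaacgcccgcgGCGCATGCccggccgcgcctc
Mrps12-Sars2: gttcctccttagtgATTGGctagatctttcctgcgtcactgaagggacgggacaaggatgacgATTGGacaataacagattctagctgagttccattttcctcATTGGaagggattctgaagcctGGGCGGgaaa
Psmb9-Tap1: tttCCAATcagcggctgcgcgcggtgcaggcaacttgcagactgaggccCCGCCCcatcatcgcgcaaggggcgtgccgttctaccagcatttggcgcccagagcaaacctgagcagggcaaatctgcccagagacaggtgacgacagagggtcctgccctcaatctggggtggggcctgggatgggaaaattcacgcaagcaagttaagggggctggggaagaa

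Each of these 5 gaps lay whole under 1 peak. The peaks were 1464 bp wide at Atm-Npat, 1515 bp at Brca1-Nbr1, 1923 bp at Ranbp1-Trmt2a, 923 bp at Mrps12-Sars2 and 1446 bp at Psmb9-Tap1. The gaps were not alike in composition: GC content was 71.7% at Atm-Npat and 67.1% at Ranbp1-Trmt2a, but 48.1% at Mrps12-Sars2, where the capitals mark CCAAT on the reverse strand and 1 GGGCGG.

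For contrast, 3 head-to-head gaps with no peak and the gaps under the widest and the narrowest member peak of their kind (head-to-head gaps of 60 to 250 bp) are shown in the same way. The gaps without a peak lay between Ngef and Neu2 (chr1:87573871-87574026), Tfpi2 and Gngt1 (chr6:3988979-3989081), and Tent4a and A930018O16Rik (chr13:69534237-69534314). These 3 were picked after their values were seen, 2 for having no CpG and the other for having the most. The widest peak, 3693 bp, lay at H2bc13-H2ac13 (chr13:21716184-21716411) and the narrowest, 428 bp, at Wrap53-Trp53 (chr11:69580251-69580347), next to the start of the tumour suppressor p53.
Ngef-Neu2: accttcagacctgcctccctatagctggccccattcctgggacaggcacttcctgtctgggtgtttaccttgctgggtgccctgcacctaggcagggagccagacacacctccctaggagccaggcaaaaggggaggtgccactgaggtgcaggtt
Tfpi2-Gngt1: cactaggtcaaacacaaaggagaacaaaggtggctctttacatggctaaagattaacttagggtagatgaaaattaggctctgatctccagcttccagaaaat
Tent4a-A930018O16Rik: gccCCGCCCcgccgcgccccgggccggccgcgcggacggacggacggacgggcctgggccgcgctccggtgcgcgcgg
H2bc13-H2ac13: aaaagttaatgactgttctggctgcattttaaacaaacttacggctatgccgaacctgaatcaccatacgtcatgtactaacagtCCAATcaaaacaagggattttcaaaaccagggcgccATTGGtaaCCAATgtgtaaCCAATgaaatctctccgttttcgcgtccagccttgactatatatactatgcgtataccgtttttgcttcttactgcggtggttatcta
Wrap53-Trp53: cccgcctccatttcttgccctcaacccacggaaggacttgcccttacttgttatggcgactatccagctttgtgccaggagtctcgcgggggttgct

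The gap between Ngef and Neu2 held 0 CpG dinucleotides in 156 bp, and so did the 103 bp between Tfpi2 and Gngt1. The nearest peak lay 5039 bp from the first and 14845 bp from the second. The gap at Tent4a was the exception, with 91.0% GC and 19 CpG in 78 bp, and its nearest peak began 38 bp away. The histone gap was AT-rich, at 40.8% GC, and its 4 CCAAT matches, on either strand, stand in capitals.

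A peak lay over 65.4% of gaps (1280 of 1958, 95% Wilson interval 63.2 to 67.4%), and within 500 bp of 35.9% of the 14956 ends of isolated genes (35.2 to 36.7%). The difference was 29.4 percentage points (Newcombe interval 27.2 to 31.6). Over all autosomal protein-coding gene ends, 45.9% had a peak within 500 bp. The gaps were shorter targets than these windows: their median was 255 bp, and peaks covered 45.6% of the 674 kb of gap sequence. Of the gaps with a peak, 1271 held 1 peak and 9 held 2, and 5 peaks lay over 2 gaps each. Gaps over 900 bp and up to 1000 bp, just inside the limit, had a peak in 44 of 86 cases (51.2%), and gaps over 1000 bp and up to 1100 bp, just outside it, in 49 of 87 (56.3%).

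The share of gaps with a peak differed with the gene ends that faced each other. The strand of both genes was known for 1397 gaps. Of 548 head-to-head gaps 531 had a peak (96.9%, 95.1 to 98.1%), of 435 head-to-tail gaps 321 (73.8%, 69.5 to 77.7%), and of 414 tail-to-tail gaps 93 (22.5%, 18.7 to 26.7%). These 3 intervals did not overlap. The 561 gaps with an unknown strand fell between, with 335 (59.7%). The median gap was 102 bp for head-to-head, 449 bp for head-to-tail and 382 bp for tail-to-tail gaps.

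Single bases give a comparison with targets of equal size. The start base of a gene, its outermost annotated base on the upstream side, lay under a peak for 1046 of 1096 genes in head-to-head gaps (95.4%, 94.0 to 96.5%). It did so for 310 of 435 downstream genes of head-to-tail gaps (71.3%, 66.8 to 75.3%) and for 2995 of 5939 isolated genes (50.4%, 49.2 to 51.7%). The background over all autosomal genes of known strand was 62.5%. Head-to-head starts thus stood 45.0 points above isolated starts (43.1 to 46.7) and 24.2 points above head-to-tail starts (19.9 to 28.7). Both starts of a head-to-head gap mostly lay under a single peak, so they are not independent and their intervals are too narrow. Each can also lie under a peak of its neighbour's start, which an isolated start lacks. The part of this in the difference was not tested. The 7478 isolated genes, with or without known strand, included 1089 chemosensory receptors, which serve mainly in sensory cells. Without these receptors, 5003 isolated genes of known strand remained, of which 59.7% were covered. The difference was then 35.7 points (33.8 to 37.5). With any start listed for a gene in place of its outermost base, the shares were 94.4% and 56.9%, a difference of 37.5 points.

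**Figure D1:**
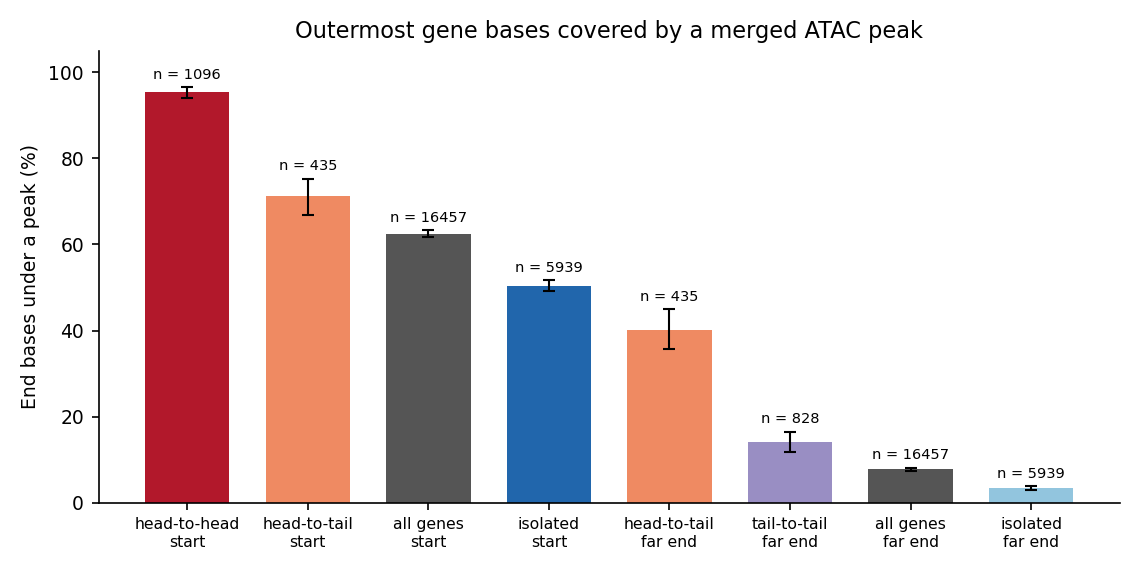
Share of outermost gene bases under a peak, in percent, by the kind of end (bars, with 95% Wilson intervals and the number of ends). Head-to-head starts reach 95.4%, isolated starts 50.4%, and the far ends of isolated genes 3.33%.

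Far ends were covered less often than starts in head-to-tail gaps and at isolated genes, the arrangements that have both. The far base, the last annotated base of a gene, lay under a peak at 198 of 5939 isolated genes (3.33%, 2.91 to 3.82%) and at 7.74% of all autosomal genes. It did so at 116 of 828 ends of tail-to-tail gaps (14.0%, 11.8 to 16.5%) and at 175 of 435 upstream genes of head-to-tail gaps (40.2%, 35.7 to 44.9%). Far bases in tail-to-tail gaps stood 10.7 points above isolated ones (8.42 to 13.2). Those in head-to-tail gaps stood 26.2 points above those in tail-to-tail gaps (21.1 to 31.4). In head-to-tail gaps both end bases were covered in 169 cases, the start alone in 141, the far end alone in 6 and neither in 119, of which 5 had a peak inside the gap. Across all end bases of autosomal protein-coding genes the covered share was 35.3%.

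Head-to-head gaps were mostly covered whole, by 1 peak. Both start bases lay under a peak in 515 of 548 gaps (94.0%), 1 alone in 16 and neither in 17. In 514 gaps (93.8%, 91.5 to 95.5%) a single peak crossed the gap and reached into both genes. Such bridging occurred in 168 head-to-tail gaps (38.6%, 34.2 to 43.3%) and in 32 tail-to-tail gaps (7.73%, 5.53 to 10.7%). Over all gaps it was 929 of 1958 (47.4%).

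Bridging was rarest in the longest gaps. Over gaps of every orientation it fell from 71.5% at 1 to 100 bp to 15.7% over 500 bp. A fall with length is partly set by the measure, since 1 peak must span the whole gap. Orientation differed as well: 272 of 547 gaps of 1 to 100 bp and 41 of 581 over 500 bp were head-to-head. The part of either in the fall was not tested. In head-to-head gaps the bridged share was 97.4% at 1 to 100 bp, 90.4% over 300 and up to 500 bp, and 61.0% (25 of 41, 45.7 to 74.3%) over 500 bp. Head-to-tail gaps showed no steady fall up to 500 bp, with 48.2% at 1 to 100 bp, 71.1% over 100, 57.1% over 200 and 53.7% over 300 bp. Over 500 bp they were bridged in 15.8% of cases (11.3 to 21.6%), although 77.4% of them held a peak. Tail-to-tail gaps held a peak in 12.0% of cases (6.44 to 21.3%) at 1 to 100 bp and in 30.5% (23.8 to 38.2%) over 500 bp, with 17.9%, 12.9% and 24.1% in the classes between.

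**Figure D2:**
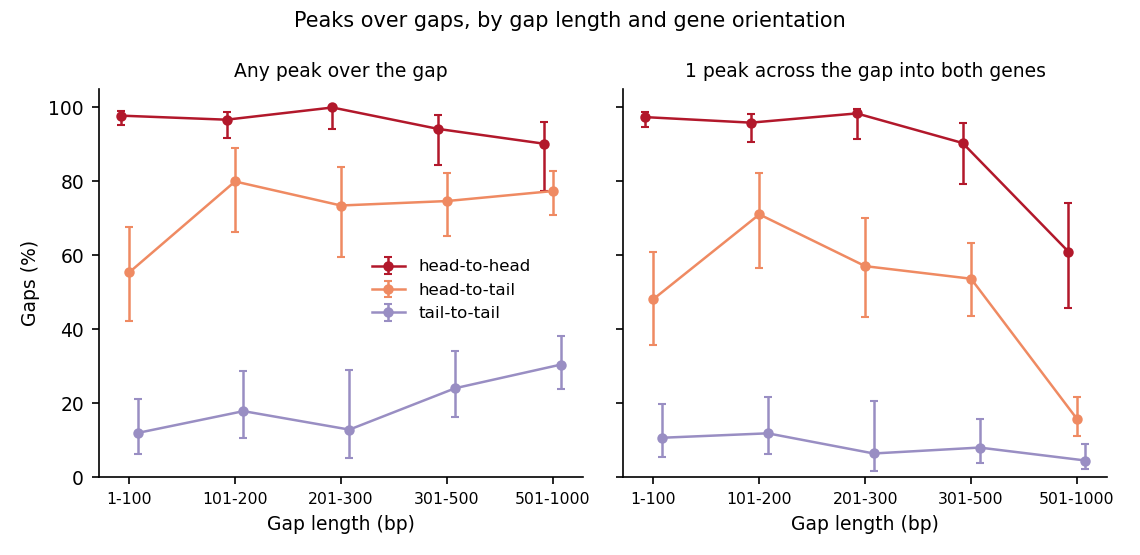
Share of gaps with any peak (left) and with 1 peak across the gap into both genes (right), in percent, against gap length class in bp, by orientation (points, with 95% Wilson intervals). Head-to-head gaps stay above 90% with a peak in every class, while the bridged share drops to 61.0% in the longest.

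Coverage around the gaps showed where the peaks were centred. At the midpoint of head-to-head gaps 95.6% of loci were under a peak, falling on both sides to 76.8% and 77.9% at 500 bp, 17.5% and 20.3% at 1000 bp and 3.28% and 4.74% at 3000 bp. In head-to-tail gaps coverage was highest not at the midpoint (61.8%) but 500 bp from it towards the downstream gene (71.7%). It was 21.4% at the same distance towards the upstream gene. These distances include part of the gap, while those at isolated starts run from the start base. Isolated starts were covered at 50.4% of loci, with 46.2% at 500 bp inside the gene and 24.3% at 500 bp outside it.

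Tail-to-tail gaps had no such maximum. Coverage was 15.7% at their midpoint, 18.8% at 1000 bp on both sides and 16.2% at 3000 bp on both sides, and it stayed between 13.0 and 19.8% over the whole 6 kb. Around far ends of isolated genes it was lower throughout, at 3.33% on the end itself and between 6.47 and 7.39% at 1000 and 3000 bp on either side. Among far ends with the nearest listed start over 5 kb away, 15.6% of tail-to-tail far bases (75 of 481) and 3.39% of isolated ones (141 of 4154) were covered, a difference of 12.2 points (9.17 to 15.7).

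**Figure D3:**
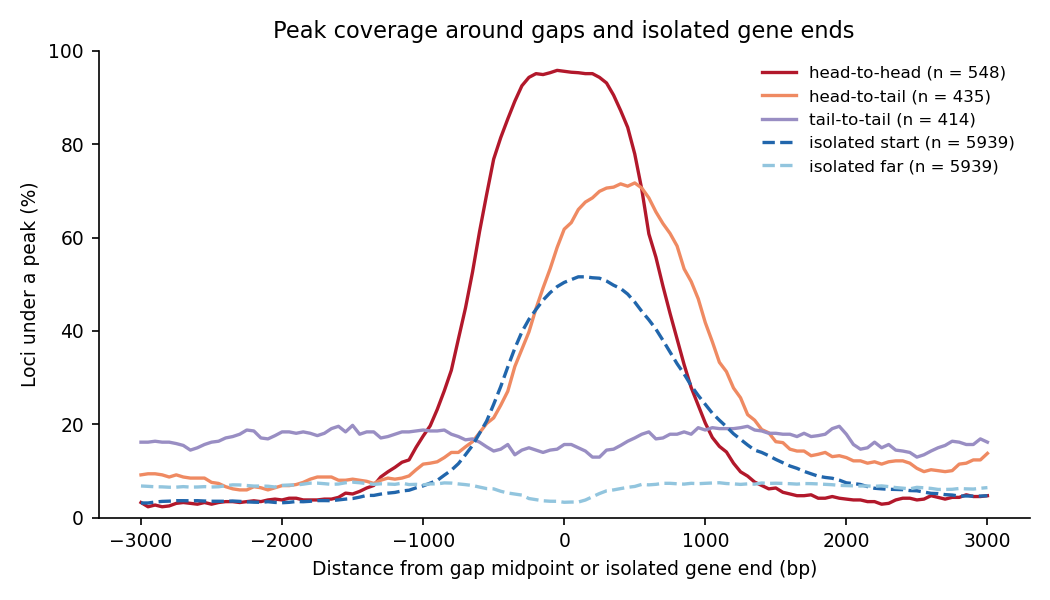
Share of loci under a peak, in percent, against distance in bp from the gap midpoint (solid lines) or the isolated gene end (dashed lines). Positive distances run towards the downstream gene for head-to-tail gaps, into the gene for isolated starts and away from the gene for isolated far ends. The tail-to-tail line stays between 13.0 and 19.8%.

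Member peaks were wide against the whole list. Their median width was 1319 bp (quartiles 1049 and 1661 bp, highest 3846 bp), against 579 bp for all autosomal peaks, and 1196 of 1284 (93.1%) were wider than that. Together they covered 1.75 of the 113 Mb under autosomal peaks (1.55%). Head-to-head gaps had a median peak width of 1407 bp (interval of the median 1367 to 1447 bp), head-to-tail gaps 1267 bp (1218 to 1334 bp) and tail-to-tail gaps 866 bp (668 to 1111 bp).

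Peaks at isolated starts were about as wide. Peaks within 500 bp of any isolated end had a median of 1241 bp, 78.0 bp under the members (47.2 to 113 bp). With peaks over an end base on both sides the difference was -26.0 bp (-61.2 to 13.4 bp), so that it did not hold there. Head-to-head peaks over a start base were 1407 bp wide and isolated ones 1368 bp, a difference of 39.0 bp whose interval (-7.65 to 84.7 bp) includes 0. Head-to-tail peaks over an end base, at 1289 bp, were 79.0 bp narrower than isolated start peaks (-151 to -12.3 bp for the difference). A wide peak can touch more targets than a narrow one, and the part of this in the difference from the whole list was not tested.

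**Figure D4:**
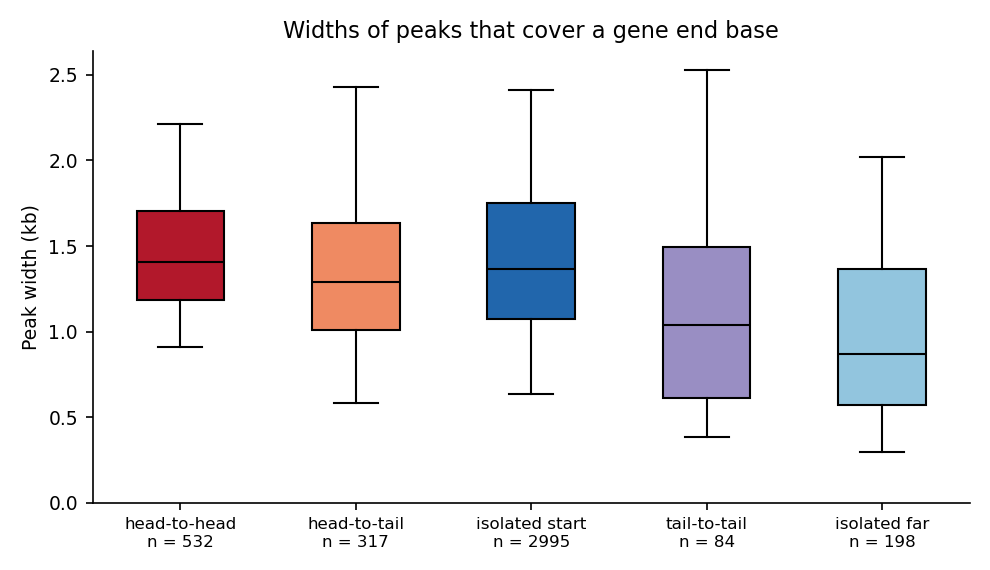
Widths in kb of peaks that cover a gene end base, by kind of end (box, quartiles; line, median; whiskers, 5th and 95th percentile). The medians are 1407 bp for head-to-head, 1289 bp for head-to-tail, 1368 bp for isolated start, 1039 bp for tail-to-tail and 872 bp for isolated far ends.

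The reach of these peaks on either side of a start was also measured. A bridging head-to-head peak reached a median of 610 bp into each gene (quartiles 461 and 804 bp) across a median gap of 97 bp. An isolated start peak reached 839 bp into its gene (588 and 1154 bp) and 471 bp outside it (316 and 680 bp). The intervals of these medians were 589 to 630 bp for head-to-head and 819 to 859 bp for isolated reach into a gene. The difference was -229 bp. It does not compare like sides: both sides of a bridging peak lie in genes and were pooled, while an isolated peak has 1 side outside its gene. The difference alone therefore does not show another layout. Peaks at head-to-tail starts reached 728 bp into the downstream gene and 518 bp outside it, over the gap or beyond.

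Width and gap length were only weakly related. Over the 531 head-to-head gaps with a peak Spearman's rho was 0.134, over 321 head-to-tail gaps -0.0912 and over 93 tail-to-tail gaps -0.298. Long gaps can also admit narrow peaks that cross neither end, and the part of this in these values was not tested. Listed starts lay under 529 of 532 head-to-head peaks (99.4%), 297 of 322 head-to-tail peaks (92.2%) and 7 of 95 tail-to-tail peaks (7.37%). This contrast is largely set by the arrangement, since head-to-head and head-to-tail gaps lie beside starts and tail-to-tail gaps do not. The 7 tail-to-tail peaks with a listed start had a median width of 2529 bp, and the 88 without 808 bp. Starts were listed for 80.1% of autosomal protein-coding genes, so a peak without one may still cover an unlisted start.

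The promoters of head-to-head genes were rich in CpG. Promoter sequence of 300 bases, from 250 before to 50 after a start, was at hand for all 1096 of them, since strand came from the same table. Their median ratio of observed to expected CpG, which is near 1 in CpG islands and low where methylation has eroded them, was 0.844 (quartiles 0.704 and 0.972), with 62.0% GC. Starts of head-to-tail gaps had a median of 0.629, isolated genes 0.407 and all autosomal promoters 0.597. The 34 genes of the 17 head-to-head gaps without a peak had a median of 0.206 and 4 CpG per promoter, against 0.851 and 24 for those with one. Isolated genes were split likewise, at 0.728 where the start base was covered and 0.164 where it was not.

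CpG content moved with the coverage of starts, so the comparison was repeated within classes of CpG content. The ratio came from the listed promoter nearest to the start base, which need not lie at that base. With a ratio of at least 0.8, 635 of 643 head-to-head starts (98.8%, 97.6 to 99.4%) and 1144 of 1295 isolated starts (88.3%, 86.5 to 90.0%) were covered. The difference there was 10.4 points (8.39 to 12.4), against 45.0 over all promoters. Head-to-tail starts of that class were covered in 83.8% of cases (93 of 111, 75.8 to 89.5%), an interval that overlaps that of isolated starts. In the class under 0.2, 11 of 30 head-to-head starts (36.7%, 21.9 to 54.5%) and 152 of 1855 isolated starts (8.19%, 7.03 to 9.53%) were covered. Head-to-head starts stood above isolated ones in each of the 5 classes, but 58.7% of them and only 21.8% of isolated genes were in the highest class.

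**Figure D5:**
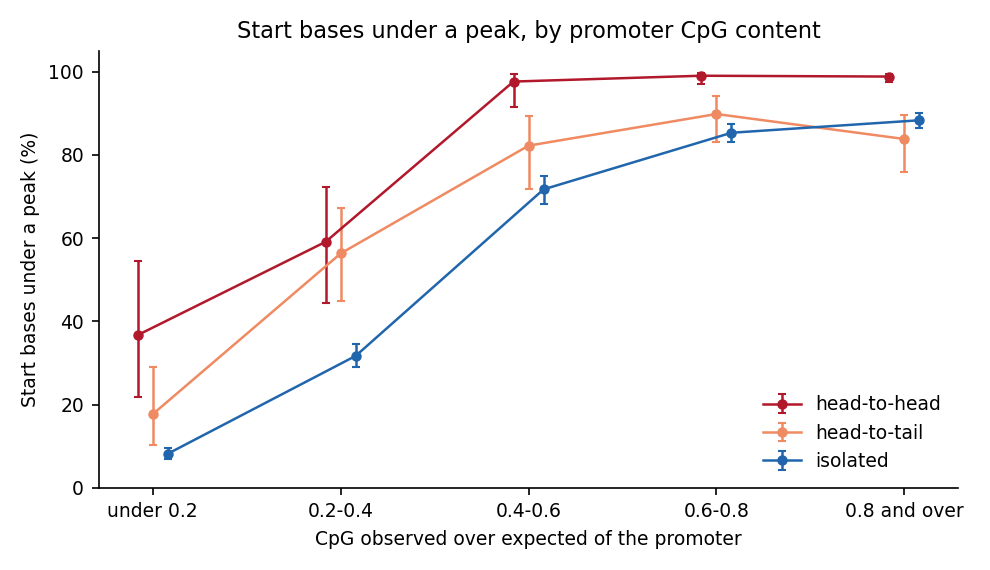
Share of start bases under a peak, in percent, against the ratio of observed to expected CpG in the promoter, for genes of head-to-head gaps, downstream genes of head-to-tail gaps and isolated genes (points, with 95% Wilson intervals). In the highest class the shares are 98.8%, 83.8% and 88.3%.

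Short motifs were counted in the same promoters, on both strands. They were CCAAT (the box bound by NF-Y), GGGCGG (the GC box of Sp1), CCGGAAG (an ETS site), TGACGTCA (the cAMP response element), CACGTG (the E-box), GCATGCGC (part of the NRF1 site), CTCGCGAG, AAGATGGC (a YY1 site) and TATAAA (the TATA box). None of the 9 is contained in another. CCGGAAG was found in 27.1% of head-to-head promoters (24.6 to 29.8%), against 11.0% of covered isolated promoters (9.95 to 12.2%) and 12.3% of all autosomal ones. AAGATGGC was found in 8.76%, 2.44% and 3.21% of these sets, and CTCGCGAG in 4.01%, 1.34% and 1.29%. Both letter strings, like CCGGAAG, had intervals in head-to-head promoters that did not overlap those of covered isolated promoters.

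The same held for GCATGCGC, in 6.66% of head-to-head promoters (5.33 to 8.29%), 3.94% of covered isolated ones (3.30 to 4.70%) and 3.66% of all, and for CCAAT, in 45.5% (42.6 to 48.5%), 38.6% (36.9 to 40.4%) and 39.1%. For the GC box, the E-box and the cAMP response element the intervals overlapped. GGGCGG was in 66.2% of head-to-head and 65.5% of covered isolated promoters, 47.3% of all, the E-box in 10.4%, 9.75% and 7.97%, and the cAMP response element in 3.74% of head-to-head and 3.17% of covered isolated promoters. TATAAA was in 5.66%, 8.28% and 13.5%, and in 29.2% of isolated promoters whose start was not covered. Promoters of a head-to-head pair can share bases. With 1 gene per gap (548 promoters) the shares were 25.9% for CCGGAAG, 8.39% for AAGATGGC, 3.47% for CTCGCGAG and 5.29% for TATAAA. The sets were not matched for CpG content, and motifs such as CCGGAAG, CTCGCGAG and GCATGCGC contain CpG. The median CpG ratio was 0.844 for head-to-head and 0.728 for covered isolated promoters, and its part in the motif shares was not tested.

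Among the gaps themselves, 298 head-to-head gaps of 40 to 250 bp with a peak had a median GC content of 63.2% (range 37.4 to 88.1%) and 8 CpG. The 8 without a peak had 57.1% GC and a median of 0.5 CpG. GGGCGG lay in 143 of the 298 (48.0%) and CCAAT in 114 (38.3%). Longer gaps can hold more matches, and no background of like length was counted, so these shares do not compare with those of promoters above.

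Pairs were unevenly spread over gene groups, which were matched by symbol. Subunits and assembly factors of complex I, the first enzyme of the respiratory chain, flanked a gap in 28 of 47 cases (59.6%), and histone genes, packed in clusters, in 45 of 80 (56.2%). Mitochondrial ribosomal proteins did so in 30 of 78 cases (38.5%) and aminoacyl-tRNA synthetases, which charge tRNAs, in 12 of 34 (35.3%). Proteins of DNA repair and replication followed with 32 of 99 (32.3%), the proteasome with 16 of 50 (32.0%) and ribosomal proteins with 25 of 93 (26.9%). Zinc finger genes of the Zfp series, at 41 of 388 (10.6%), and chemosensory receptors, at 10 of 1507 (0.664%), were under the 17.2% of all autosomal protein-coding genes. Symbols starting with Krt, at 5 of 112, were also under it, solute carriers, at 61 of 362 (16.9%), near it, and the Tmem series, at 61 of 231 (26.4%), over it.

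Some groups also differed from all gaps in how many of their gaps held a peak. Histone gaps did in 27 of 28 cases (96.4%, 82.3 to 99.4%), mitochondrial ribosomal protein gaps in 29 of 34 (85.3%), complex I gaps in 24 of 29 (82.8%) and gaps of DNA repair and replication genes in 29 of 36 (80.6%). Ribosomal proteins had 26 of 33, aminoacyl-tRNA synthetases 11 of 14, the Zfp series 26 of 37 and the proteasome 14 of 20. Solute carriers, the membrane transporters, were at 33 of 65 (50.8%, 38.9 to 62.5%), the Tmem series at 43 of 66 (65.2%), and chemosensory receptors at 3 of 8. Symbols starting with Krt had 1 of 4, but that 1 belongs to Krtcap3, which is not a keratin, and the keratin gaps Krt90-Krt75 and Krt78-Krt8 had none. The share over all gaps was 65.4%. Only the intervals of histones, mitochondrial ribosomal proteins (69.9 to 93.6%), complex I (65.5 to 92.4%) and solute carriers did not include it. These groups differed in orientation too. Head-to-head were 10 of 28, 16 of 34, 15 of 29 and 11 of 65 of their gaps, in that order, against 548 of all 1958. The part of orientation in the group shares was not tested. Every head-to-head gap of 10 groups held a peak, among them 16 of 16 for mitochondrial ribosomal proteins, 17 of 17 for DNA repair and replication and 11 of 11 for solute carriers, against 531 of 548 overall. Chemosensory receptors had 1 of 2, and Krt symbols had no head-to-head gap.

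Members of these groups show the pattern gap by gap. Mrpl41, of the mitochondrial ribosome, had both kinds: its head-to-head gap of 891 bp to the phospholipase gene Pnpla7 lay under a peak of 1874 bp, and its tail-to-tail gap of 283 bp to Dph7 had its nearest peak 2111 bp away. Zfp142 likewise shared a peak of 1164 bp with Bcs1l, 155 bp away head-to-head, and none with Plcd4, 353 bp away tail-to-tail. Rpl7a, a protein of the large ribosomal subunit, shared a peak of 1268 bp with Med22 across 42 bp, and the 65 bp between its far end and that of Surf1 held none. For the proteasome subunit Psma7, a peak of 1708 bp crossed the 18 bp to Ss18l1 head-to-head, and another of 1392 bp lay on the tail-to-tail gap of 900 bp to Lsm14b and reached 578 bp into Lsm14b.

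Of 20 pairs listed as textbook neighbours, 10 met the rule, and 9 of these had a peak. Besides the 5 shown above, a peak crossed Sirt3-Psmd13 (84 bp gap, 1390 bp peak), Polr1c-Yipf3 (34 and 806 bp), Mcm4-Prkdc (43 and 1214 bp) and Ndufa2-Ik (68 and 1010 bp). The gap of 598 bp between Cops6 and Mcm7, which meet tail-to-tail, had none. In 7 further pairs the annotated genes overlap, so they fell outside the rule although a single peak lay across their shared ends. Examples were the chaperonin genes Hspd1-Hspe1, overlapping by 96 bp under a peak of 1470 bp, and the collagen genes Col4a1-Col4a2, overlapping by 85 bp under 2388 bp. Ppp2r5d-Pex6 and Aars2-Tmem151b were not within 1000 bp of each other.

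The widest members were often histone clusters. A peak of 3693 bp lay over both H2bc13-H2ac13 and H2ac13-H3c10, one of 3443 bp over H4c18-H2ac24 and H2ac24-H4bc24, and one of 3413 bp over H2bc23-H2ac23 and H2ac23-H4c17. Another peak, of 2839 bp, lay over H2ac21-H2ac20 and H2ac20-H2bc21. These were 4 of the 5 peaks over 2 gaps, the other being 2057 bp wide at Anapc11-Npb-Pcyt2. The median over 23 peaks at histone gaps was 2077 bp, against 1319 bp for all members. Histone genes of a kind are near-identical copies, so reads there may be placed on more than 1 of them, and the sources used here do not say how such reads were handled.

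The widest of all, 3846 bp, crossed the 123 bp between Gm38469 and Arid2, a chromatin remodeller subunit, and reached 2546 bp into Gm38469. The peak of 3395 bp at Peg3-Usp29, an imprinted pair 96 bp apart, lay almost wholly within Peg3, with 3226 bp in it and 73 bp in Usp29. The remaining peaks among the 10 widest lay at Tmem210-Lrrc26 (3484 bp), Pygm-Rasgrp2 (3441 bp), LOC108167694-Gm20783 (3426 bp), Raly-Eif2s2 (3231 bp, tail-to-tail) and Foxred2-Eif3d (3170 bp). At the other extreme, the 5 narrowest were at most 223 bp wide, at Hapln3-Mfge8, Ldb3-Opn4, Kdm6b-Dnah2, Igsf8-Kcnj9 and Adam19-Nipal4. The strand is not known for Kdm6b-Dnah2, none of the other 4 gaps was head-to-head, and each peak lay inside its gap without touching either gene. Of the 5 gaps of 1 bp listed first by position, the ones known to be head-to-head, Zfp944-Zfp758 and Snx5-Mgme1, had peaks of 1275 and 1184 bp. Spsb3-Eme2, tail-to-tail, had none, and neither had Ubn1-Ppl and Nelfe-Cfb, whose orientation is not known. Their nearest peaks were 2467, 2545 and 48 bp away, in that order.

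The 17 head-to-head gaps without a peak included genes of the major urinary proteins and of odorant receptors, and others that lay close to a peak. Mup15-Mup-ps12 and Mup19-Mup-ps16 belong to the major urinary proteins made by liver, and their nearest peaks were 26225 and 7615 bp away. Olfr181-Olfr183 are odorant receptors, with the nearest peak 44846 bp away, and Gm26650-Gm10410 had theirs at 17839 bp. Cd160-Pdzk1, Gfy-Pth2, Best1-Rab3il1, Acp4-Gm15517, Rnf123-Mst1, Dusp3-Cfap97d1 and Mpig6b-Ly6g6c had a peak 537 to 1470 bp away. A peak came within 500 bp at Stat5b-Stat5a, Ushbp1-Babam1, Mast1-Rtbdn and Tent4a-A930018O16Rik, at 469, 193, 45 and 38 bp. Stat5a and Stat5b are signal transducers of cytokine receptors. Ngef-Neu2 and Tfpi2-Gngt1, with the sequences shown above, complete the set.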

How the data were processed

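Nuclei of 18 cultures were profiled by ATAC-seq, and the authors deposited 1 merged list of peaks, whose values, of no other unit, are a chromosome, a start and an end in bp and a name that repeats the position. MACS2 2.2.7.1, Trimmomatic 0.36 and Bowtie2 2.4.2 appear as tools, and GRCm38 and mm10 as builds, per the submitters' processing notes. The merging rule, the peak threshold, the treatment of duplicate or multiply placed reads and of blacklisted regions, and any shift of reads for the transposase are not given in the sources used here. A threshold or merging rule could change which peaks exist and how wide they are, and joining of neighbouring peaks would raise the bridged share.

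Starts were moved to 1-based positions, and 160099 autosomal peaks were kept. Genes came from a RefSeq table of GRCm38.p6, without rows on patches or scaffolds, and strand from RefSeq promoter sequences for 16457 of 20558 autosomal protein-coding genes (80.1%). Genes were matched by gene ID, and 1397 of 1958 gaps had the strand of both genes. Where several promoters were listed for a gene, the one nearest to its outermost base gave GC and CpG values. The share with a listed start at the gene end itself was 57.9% for head-to-head, 51.5% for head-to-tail start and 65.1% for isolated genes. Elsewhere the promoter read for CpG and the start base counted as covered differ in position. An overlap of at least 1 bp counted as a peak over a gap, and 500 bp either side of an isolated end as the window there. Shares have Wilson 95% intervals, differences of shares Newcombe intervals, and medians intervals from order statistics. A difference of medians has an interval combined from theirs. They cover counting over loci only, since the list holds no replicate values and no test between samples was possible. Neighbouring genes share peaks and sequence, so loci are not independent.

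The rule, the 12 gene groups, the 20 textbook pairs and the 9 motifs were chosen with earlier results of these data known. Named were the textbook pairs, up to 4 gaps with and 4 without a peak per group in chromosome order, the 10 widest and 5 narrowest members, the 5 shortest gaps, peaks over 2 gaps and head-to-head gaps without a peak. From these the text gives examples, 1 textbook pair is not reported here, and the head-to-head gaps over 250 bp without a peak were added after their values were seen. The classes of CpG content, the comparison without chemosensory receptors, the listed starts and the distance to a start were added after seeing the data. The search for gaps and ends was tested on simulated peaks. Tables were made with pandas 2.3.3, scipy 1.17.1 and numpy 2.4.6 under Python 3.11.15, and figures with matplotlib 3.10.9.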

Additional observations from a re-analysis of the deposited data

How the results depend on the processing

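The higher share of peaks at gaps kept its direction under all 9 alternatives that recomputed it, and the greater width did not: its interval included 0 under 4 settings. With gaps of up to 500 bp, 67.9% of gaps had a peak, 32.0 points above isolated ends, with a median width of 1355 bp, 114 bp above theirs, and 60.9% were bridged. With neighbours over 50 kb away the difference in share was 26.6 points and that in width turned to -15.0 bp (-57.2 to 31.1). With windows of 250 bp these were 33.2 points and 26.0 bp (lower bound -4.23), and with a covered end base 36.7 points and -26.0 bp (-61.2 to 13.4), again a turn. Counting peaks by midpoint gave 37.7 points and a median width of 1267 bp, and genes of every kind as neighbours gave 36.1 points and 125 bp. With only peaks wider than the autosomal median, 61.2% of gaps had a peak, with a median width of 1358 bp, 21.5 bp above isolated ends (-15.0 to 61.9). Without chemosensory receptors the difference in share was 24.0 points. A reach of 100 bp into both genes lowered the bridged share to 44.4%. The excess of covered start bases in head-to-head pairs, 45.0 points, was 35.7 points without chemosensory receptors, 37.5 points for any listed start, and 11.8 and 10.4 points for promoters with a CpG ratio of at least 0.6 and 0.8. Shares by orientation and promoter composition moved by less than their intervals or spread. Apart from the settings' own construction, the cause of these shifts was not tested. No paired analysis was possible because the list holds no values per library. Depth per library is unknown, and a gap without a peak is one where none was called, not one shown to be closed.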

Other observations

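Gaps per 1000 protein-coding genes ranged from 43.1 on chromosome 18 to 141 on chromosome 17 and 124 on chromosome 11. The share of gaps with a peak ranged over the autosomes from 56.9% (44.1 to 68.8%) on chromosome 16 to 78.2% (67.8 to 85.9%) on chromosome 10, and the intervals of these extremes overlapped. Median member widths ranged from 1091 bp on chromosome 18 to 1535 bp on chromosome 13. Of the gaps, 0 of 22 on chromosome 18 and 38 of 73 on chromosome 13 were classed as head-to-head, and gaps of unknown strand have no such class. Chromosome 18 thus adds nothing to the head-to-head results, and the part of orientation in these widths was not tested.

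A noncoding gene or pseudogene lay over 43 of 435 head-to-tail gaps, and 35 of these had a peak (81.4%, 67.4 to 90.3%), against 286 of the other 392 (73.0%, 68.4 to 77.1%). Only 5 head-to-head gaps and 1 tail-to-tail gap had one.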
